A study of Mus musculus with 20 samples.

Results

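A set of 10 genes of newborn and immature neurons was followed in the forebrain of cTKO mice and their controls. They are the transcription factors Sox11, Sox4, Eomes, Neurod1 and Neurod2, the cytoskeletal genes Dcx, Dpysl3 and Dpysl5, and the genes of the secreted proteins Igfbpl1 and Draxin. The 10 genes were taken by symbol from the 24421 genes listed for every library. All 10 were listed for all 20 libraries, though Eomes and Igfbpl1 had 0 counts in some control neocortex libraries.

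RNA-seq was performed on the hippocampus (HP) and the neocortex (NCX) of 3-month-old animals, with 5 cTKO mice, 5 controls from the same litters and 20 libraries in all. By the study's methods both regions were taken from these 10 mice, but the labels do not tie a library to a mouse. Controls carried floxed App, Aplp1 and Aplp2 without Cre, and cTKO mice carried the same floxed alleles together with the Camk2a-Cre transgene. Mice of both sexes on a mixed C57BL/6J and 129 background were used. Camk2a-Cre acts in forebrain excitatory neurons after birth, so the dissected tissue still holds glia, interneurons and progenitors with intact alleles, and in bulk tissue fewer cells of a type and less RNA per cell cannot be told apart.

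In the adult hippocampus, neural stem cells of the dentate gyrus divide and give rise to granule neurons throughout life. Eomes marks the intermediate progenitors, Neurod1 drives the step to a neuronal fate, and Sox11, Sox4 and Dcx are high in neuroblasts and immature neurons and fall as the cells mature. The adult neocortex has no comparable germinal zone, but several of these genes keep a lower or different expression in mature neurons, Neurod2 in excitatory neurons among them.

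Total counts ranged from 12169474 to 25331954 per library, and a floor of 3 counts corresponded to between 0.123 and 0.248 CPM (counts scaled to the library total, adjusted by the TMM factor of each library). That floor reflects counting error alone, because the reads carry no molecular identifiers. The targeted genes were lower in cTKO mice in both regions, as log2 fold changes of -1.78 for App, -1.93 for Aplp1 and -1.25 for Aplp2 in the hippocampus, and these were -2.10, -1.92 and -1.60 in the neocortex. In 2 libraries transcripts from a list of genes of embryonic tissue were high. The 16 genes of the embryonic list summed to 391 CPM in cTKO hippocampus 4 and to 637 CPM in cTKO neocortex 5, while the other 18 libraries had 2.83 to 7.19 CPM, and H19, Hbb-y and Hba-x had the most counts in both. Calls between genotypes are therefore given with and without the library concerned.

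Dcx lies on the minus strand of chromosome X (143855842 to 143933311, GRCm38) and Sox11, a gene of 1 exon, on the minus strand of chromosome 12 (27334264 to 27342574). Igfbpl1 lies on chromosome 4 (45809468 to 45826923). Of the 10 genes, 5 overlap another annotated gene, namely Sox4 (Gm26735), Eomes (Gm33460), Neurod1 (Cerkl and Gm26755), Draxin (Mad2l2) and Dpysl5 (Gm42764). These overlaps are of whole gene spans, not of exons. Cerkl and Gm42764 lie on the same strand as Neurod1 and Dpysl5, and the other overlapping genes lie on the opposite strand. Whether counting used the strand is not given in the sources used here, so the part of opposite-strand reads in the counts is not known. Dcx, Sox11, Igfbpl1, Neurod2 and Dpysl3 overlap no other gene.

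Of the 10 genes, 8 matched the RefSeq promoter table (GRCm38.p6, 250 bases before to 50 after the start), with 9 promoters, and Igfbpl1 and Dpysl3 did not. The promoters of Dcx (chrX:143933170-143933469, minus strand) and Sox11 (chr12:27342669-27342968, minus strand) are shown because both genes were higher in the cTKO hippocampus. Capitals mark matches on either strand to the E-box letters CAGATG or CAGCTG, the SOX letters ACAAAG or the TATA box letters TATAAA, and these motifs share no letters in either window.
Dcx: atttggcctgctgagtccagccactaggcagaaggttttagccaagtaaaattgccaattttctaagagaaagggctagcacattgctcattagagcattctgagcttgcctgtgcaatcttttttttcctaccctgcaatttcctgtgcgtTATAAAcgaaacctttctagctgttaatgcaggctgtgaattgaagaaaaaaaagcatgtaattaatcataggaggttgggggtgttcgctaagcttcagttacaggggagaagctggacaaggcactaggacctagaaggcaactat
Sox11: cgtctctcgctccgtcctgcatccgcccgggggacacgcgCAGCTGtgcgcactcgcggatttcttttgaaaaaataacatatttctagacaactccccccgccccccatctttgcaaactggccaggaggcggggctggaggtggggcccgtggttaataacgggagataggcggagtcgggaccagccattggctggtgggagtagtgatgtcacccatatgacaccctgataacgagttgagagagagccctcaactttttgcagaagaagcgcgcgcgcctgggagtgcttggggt
The Dcx window holds TATAAA, which is in 13.6% of all 32851 promoters of that length, and the Sox11 window holds CAGCTG, which is in 16.3%. Of the 9 promoters of the genes, 3 held CAGCTG, 1 held CAGATG (17.2% of all), 3 held ACAAAG (18.7%) and 2 held TATAAA. The 2 promoters with TATAAA are overlapping windows of Dcx. A match describes the sequence only.

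Per length, as CPM per kilobase of annotated exon, the genes covered a wide range in the control hippocampus. Neurod2 was the highest at 67.4 ± 5.91 (SD, n = 5), followed by Neurod1 at 14.5 ± 1.86, Dpysl3 at 9.84 ± 1.04 and Dpysl5 at 5.81 ± 0.649. Sox4 at 2.66 ± 0.0777 and Sox11 at 2.64 ± 0.229 did not differ beyond their spread. Dcx stood at 1.44 ± 0.110, and Igfbpl1 (0.514 ± 0.104), Draxin (0.427 ± 0.101) and Eomes (0.188 ± 0.0508) were the lowest, the first 2 of them within their spread of each other. In the control neocortex, Dcx moved up to place 5 at 3.99 ± 0.208 and Eomes was again the lowest at 0.0108 ± 0.0101.

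**Figure D1:**
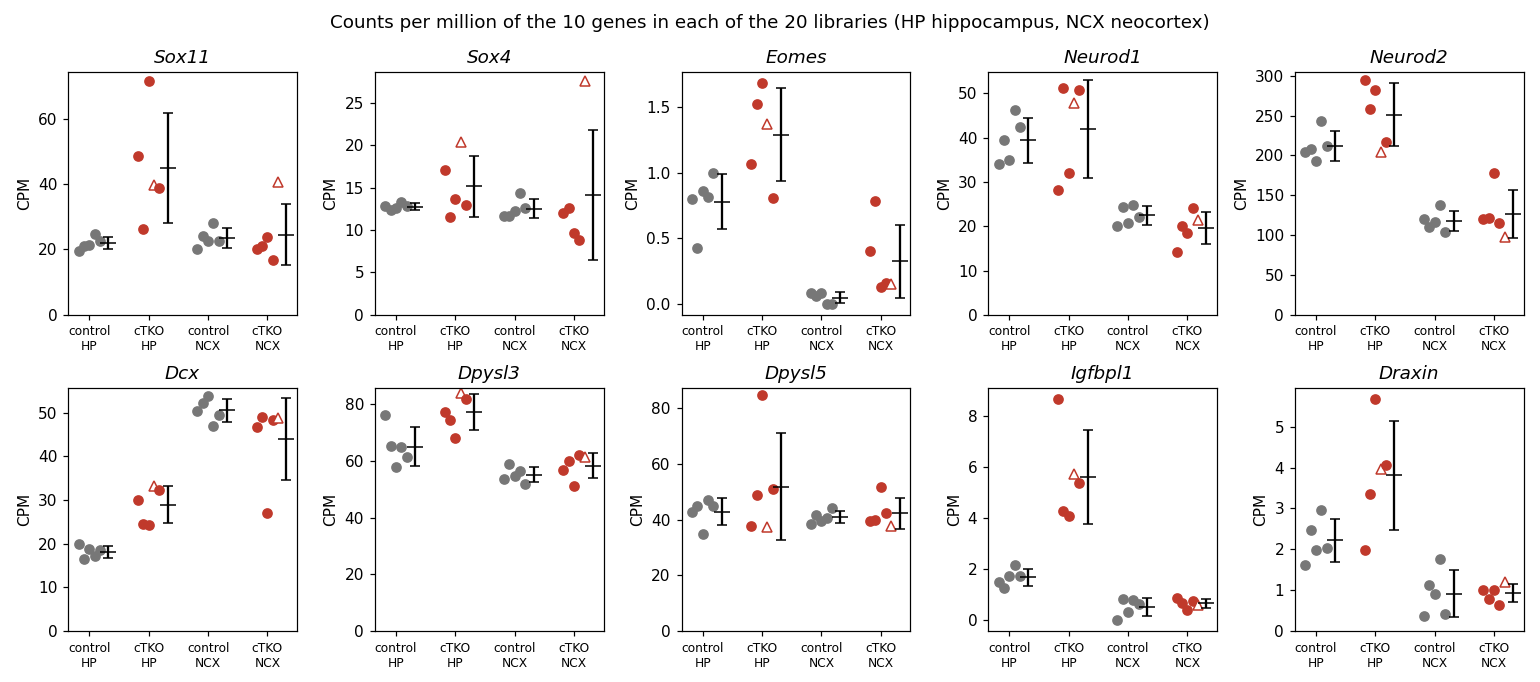
CPM (linear axes) of each gene in each library of the 4 groups, with controls in grey, cTKO in red, the mean ± SD beside them and open triangles for cTKO hippocampus 4 and cTKO neocortex 5. In the hippocampus, Sox11, Dcx and Igfbpl1 are higher in all 5 cTKO libraries than in any control library, and in the neocortex the triangle is the highest point of Sox4 (27.6 CPM) and Sox11 (40.7 CPM).

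In the hippocampus, Dcx, Sox11 and Igfbpl1 were higher in cTKO mice than in controls, by 1.59-fold, 2.06-fold and 3.38-fold. Of the 9 genes that passed the filter on low counts (CPM above 1 in at least 5 of 10 libraries), 3 were called higher at an FDR under 0.05 and 0 lower, where 0.314% of all 13702 genes tested were called higher and 0.175% lower. All 9 log2 fold changes were above 0, with a median of 0.28 against 0.0049 over all genes. The genes were chosen with earlier results of these data known, so these shares and medians only describe them. Without cTKO hippocampus 4, Dcx and Igfbpl1 were called and Sox11 was not, which left 2 of 9 genes where 0.301% of all genes were called higher.

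Among the transcription factors, Sox11 is needed for the differentiation of newborn neurons. Its level was 19.6, 21.2, 21.5, 24.8 and 22.6 CPM in control hippocampus 1 to 5 and 48.7, 26.2, 71.5, 39.8 and 38.7 CPM in cTKO hippocampus 1 to 5. The 5 cTKO libraries all lay above the 5 controls, with the lowest close to them and library 3 far above the rest. The log2 fold change was 1.04 (SE 0.204, FDR 0.0456), and 1.07 (SE 0.216, FDR 0.0592) without cTKO hippocampus 4. The call was also lost without control library 1, 2, 3, 4 or 5 or cTKO library 1, with an FDR between 0.0905 and 0.138, and under edgeR's filterByExpr (FDR 0.0506), while the size stayed between 0.81 and 1.18 in every alternative.

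Sox4, the other SoxC factor of immature neurons, stood at 12.8, 12.3, 12.6, 13.3 and 12.8 CPM in controls and at 17.1, 11.5, 13.7, 20.4 and 12.9 CPM in cTKO mice. The groups overlapped, and the highest value came from cTKO hippocampus 4. The log2 fold change was 0.25 (SE 0.139, FDR 0.519) and 0.11 (FDR 0.763) without that library. Neurod1, a factor of the neuronal fate of granule cells, was at 34.2, 39.5, 35.0, 46.3 and 42.4 CPM in controls and at 28.2, 51.1, 31.9, 47.7 and 50.7 CPM in cTKO mice. The cTKO libraries fell both below and above the controls, and the log2 fold change was 0.09 (SE 0.164, FDR 0.892). Neurod2, a factor of excitatory neurons, was at 204, 207, 193, 243 and 211 CPM in controls and at 295, 259, 281, 205 and 216 CPM in cTKO mice. Libraries 1 to 3 of the cTKO group lay above every control and the other 2 among them, with a log2 fold change of 0.25 (SE 0.102, FDR 0.349).

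Eomes, the marker of intermediate progenitors, was too low for the filter. It had 16, 10, 19, 17 and 19 counts in control hippocampus 1 to 5 (0.804, 0.428, 0.859, 0.815 and 0.996 CPM) and 26, 35, 41, 29 and 19 counts in the cTKO libraries (1.07, 1.52, 1.69, 1.37 and 0.807 CPM). Of the cTKO libraries, 4 lay above all controls and the fifth among them. In a fit with no filter, the log2 fold change was 0.74 (SE 0.295, FDR 0.399), and the exact two-sided permutation test over the 10 libraries gave p = 0.0317, and p = 0.0635 without cTKO hippocampus 4.

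Among the cytoskeletal genes, Dcx encodes a microtubule-associated protein of migrating neuroblasts. It was at 19.999, 16.4, 18.7, 17.3 and 18.6 CPM in control hippocampus 1 to 5 and at 30.0, 24.6, 24.2, 33.2 and 32.4 CPM in cTKO hippocampus 1 to 5. No cTKO library reached down to the controls, and the groups were 18.2 ± 1.39 and 28.9 ± 4.25 CPM (SD, n = 5). The log2 fold change was 0.67 (SE 0.104, FDR 0.0143), and 0.61 (SE 0.103, FDR 0.0241) without cTKO hippocampus 4, the library with the highest value. The call was lost without control library 2 (FDR 0.0603) or control library 4 (FDR 0.0675).

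Dpysl3, a collapsin response mediator of growing axons, was at 76.0, 65.1, 57.7, 64.8 and 61.4 CPM in controls and at 77.3, 74.3, 68.0, 84.0 and 81.8 CPM in cTKO mice. All 5 cTKO libraries lay above the control median, but control library 1 fell among them, and the log2 fold change of 0.25 (SE 0.0818, FDR 0.237) was not called. Dpysl5, of the same family, was at 42.6, 44.8, 34.8, 47.2 and 45.0 CPM in controls and at 37.7, 48.8, 84.6, 37.3 and 51.0 CPM in cTKO mice. The groups overlapped and cTKO library 3 stood far above the others, as it did for Sox11, with a log2 fold change of 0.28 (SE 0.193, FDR 0.626) and of 0.03 without that library.

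Of the secreted proteins, Igfbpl1, related to the insulin-like growth factor binding proteins, showed the largest change of the 10 genes in the hippocampus. It was at 1.51, 1.24, 1.72, 2.16 and 1.73 CPM in controls and at 8.67, 4.27, 4.07, 5.73 and 5.39 CPM in cTKO mice. The lowest cTKO library was well above the highest control. The log2 fold change was 1.76 (SE 0.231, FDR 0.00487), 1.74 (FDR 0.00962) without cTKO hippocampus 4, and called in 17 of 17 alternatives. Draxin, a repulsive guidance protein of axons, was at 1.61, 2.48, 1.99, 2.97 and 2.04 CPM in controls and at 1.97, 3.35, 5.68, 3.98 and 4.08 CPM in cTKO mice. In 4 of the 5 cTKO libraries it lay above every control, and the log2 fold change of 0.78 (SE 0.261, FDR 0.248) was not called. Without cTKO hippocampus 4, Neurod1, Neurod2, Dpysl3, Dpysl5 and Draxin were at log2 fold changes of 0.03, 0.31, 0.21, 0.37 and 0.76, and again 0 of them were called.

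Sox11, Dcx and Igfbpl1 were the 3 genes whose groups did not overlap, each with p = 0.00794 in the exact two-sided permutation test, the smallest that 5 libraries against 5 can give. Over all genes tested, 1.76% had cTKO hippocampal libraries all above the controls. As replicates are separate libraries of a group, p-values measure the spread between these libraries.

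**Figure D2:**
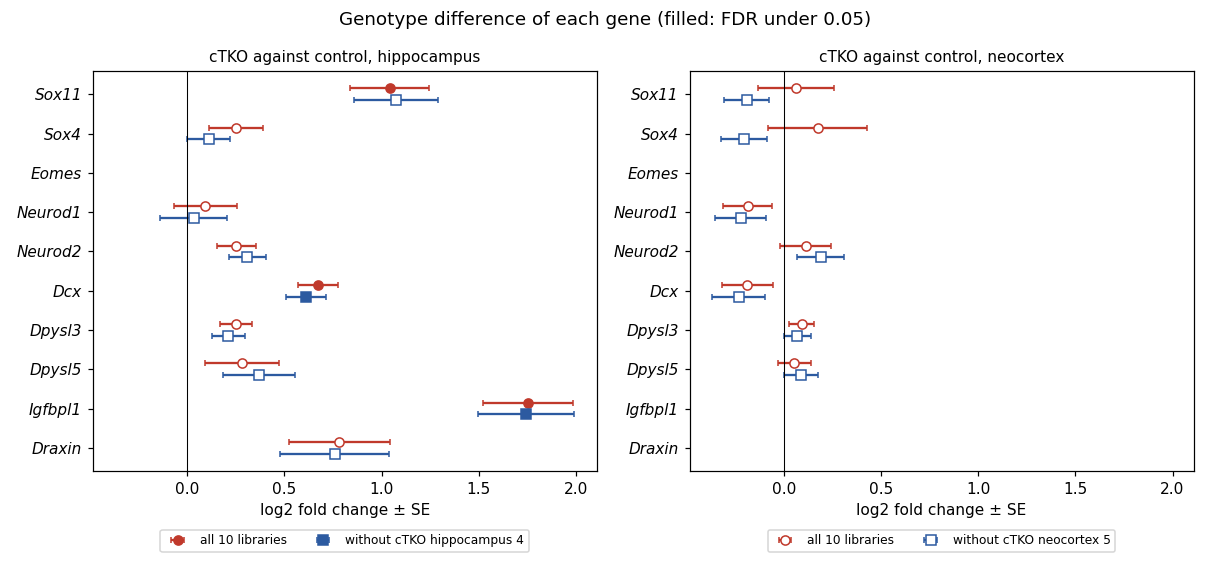
Log2 fold change of cTKO against control (points, with SE) of each gene in the hippocampus (left) and neocortex (right), from all 10 libraries of a region (circles) and without the library with embryonic transcripts (squares), filled where the FDR is under 0.05. Sox11, Dcx and Igfbpl1 stand apart at 1.04, 0.67 and 1.76 in the hippocampus, and Sox11 and Sox4 cross 0 in the neocortex when 1 library is left out; genes below the filter have no point.

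Other genes of the same stages were examined from lists. None of the 10 tested stem and progenitor genes, the 22 immature neuron genes, the 8 mature granule cell genes, the 10 subventricular neuroblast genes or the 10 tested relatives of the studied genes was called in the hippocampus with the quasi-likelihood test. At an unadjusted p under 0.05 there were 0, 7, 4, 2 and 1, where 12% of all genes tested were. Their median log2 fold changes were 0.04, 0.09, -0.01, 0.20 and 0.07. DESeq2 and edgeR's exact test each called 2 immature neuron genes (Mex3a higher, Fxyd7 lower) and 4 mature granule cell genes. Both called Gad2 higher, which is on the subventricular list but is not specific to neuroblasts. DESeq2 called 2.42% and the exact test 1.88% of all genes. The granule cell genes were C1ql2 (log2 fold change 0.77), Calb1 (-0.54), Dsp (-0.83) and Tdo2 (-1.39), with an FDR of 0.0861, 0.0568, 0.0861 and 0.165 in the quasi-likelihood fit. These genes were named after their values were seen, since the lists hold so few. Without cTKO hippocampus 4, Fxyd7 was called lower at -0.66 (FDR 0.0227).

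Lists for other cell types were set beside these results. The 6 choroid plexus and ependyma genes summed to 84.3 to 2645 CPM in control hippocampus and to 125 to 599 CPM in cTKO hippocampus, with the highest value in control library 3, and all 6 were detected in every hippocampal library. The 6 astrocyte genes summed to 1982 to 2504 CPM in controls and to 1929 to 4842 CPM in cTKO mice, the highest in cTKO library 4. Of the 9 oligodendrocyte precursor, 6 oligodendrocyte, 6 microglial, 6 endothelial, 6 excitatory neuron and 6 interneuron genes, 0 were called in either region with the quasi-likelihood test. An unadjusted p under 0.05 was found for 7 in the hippocampus and 3 in the neocortex, where 12% and 10.4% of all genes tested had one. DESeq2 and the exact test both called Camk2a lower in the neocortex. Of the choroid plexus, ependyma and astrocyte genes 0 were called in either region with the quasi-likelihood test. In the hippocampus 3 of the 6 choroid plexus and ependyma genes and 1 astrocyte gene had an unadjusted p under 0.05. In the neocortex 1 astrocyte gene had one. The choroid plexus and ependyma genes had a median log2 fold change of -1.14 in the hippocampus, against 0.0049 over all genes. The exact test called Gfap higher in the hippocampus. The part of these cells in the results was not tested.

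In the neocortex, none of the genes was called between genotypes. Of 7 tested genes 0 were higher and 0 lower by the quasi-likelihood test, DESeq2 or the exact test, and 0 had an unadjusted p under 0.05 (10.4% of all genes had), where 0.0867% of all 13843 genes were called higher and 0.101% lower by the first test, and DESeq2 and the exact test called 1.6% and 1.18% of all genes. Dcx was at 50.3, 52.2, 53.7, 46.9 and 49.4 CPM in control neocortex 1 to 5 and at 46.7, 48.9, 27.1, 48.2 and 48.7 CPM in cTKO neocortex 1 to 5. The cTKO libraries lay within or just below the controls except library 3, which stood far below, and the log2 fold change was -0.19 (SE 0.131, FDR 0.664), -0.06 without that library and -0.23 (FDR 0.552) without cTKO neocortex 5. The exact two-sided permutation test gave p = 0.0714 over the 10 libraries and p = 0.0397 without cTKO neocortex 5.

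Sox11 was at 20.1, 24.3, 22.6, 28.1 and 22.6 CPM in controls and at 20.1, 21.2, 23.9, 16.9 and 40.7 CPM in the cTKO libraries. Sox4 was at 11.7, 11.6, 12.2, 14.4 and 12.6 CPM in controls and at 11.97, 12.6, 9.62, 8.86 and 27.6 CPM in cTKO mice. For both, library 5 was far above all others and the other 4 were within or below the control range. The log2 fold changes of 0.06 (SE 0.196, FDR 0.945) and 0.17 (SE 0.255, FDR 0.873) turned to -0.19 (FDR 0.565) and -0.21 (FDR 0.548) without it.

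The other tested genes also overlapped between genotypes in the neocortex. Neurod1 (log2 fold change -0.19, FDR 0.651), Neurod2 (0.11, FDR 0.825), Dpysl3 (0.09, FDR 0.684) and Dpysl5 (0.05, FDR 0.884) were not called, and without cTKO neocortex 5 they were at -0.22, 0.19, 0.07 and 0.09, again with 0 calls. Igfbpl1 and Draxin, below the filter, were at 0 to 0.83 and 0.37 to 1.76 CPM in controls and at 0.37 to 0.86 and 0.63 to 1.20 CPM in cTKO mice. The 0 of Igfbpl1 in control neocortex 1 allows a level of up to 0.123 CPM. Eomes had 2, 1, 1, 0 and 0 counts in control neocortex and 9, 16, 2, 3 and 2 in cTKO neocortex. Every control was under the floor of 3 counts, and so were cTKO libraries 3 and 5, while cTKO libraries 1 and 2 were above it. In a fit with no filter the log2 fold change was 2.65 (SE 0.775, FDR 0.247), a size that depends on the prior count because 2 controls had 0 counts. Eomes was the 1 gene of the 10 whose CPM values did not overlap, with p = 0.00794 in the exact permutation test both with and without cTKO neocortex 5, the smallest either design can give. Its counts did overlap, with 2 each in control neocortex 1, cTKO neocortex 3 and cTKO neocortex 5. These values, under the floor, were set apart only by library size, with totals of 24842764, 16119904 and 12839121 counts. Of the 13843 genes past the filter, which leave out Eomes, 0.795% had cTKO libraries all above the controls. Of the same lists of stem and progenitor, immature neuron, mature granule cell and subventricular genes and relatives, 0 were called in the neocortex by the quasi-likelihood test, with 2, 4, 3, 2 and 1 at an unadjusted p under 0.05, and both other tests called Gad2 higher. Without cTKO neocortex 5 the quasi-likelihood test called Gad2 too, at a log2 fold change of 0.52 (FDR 0.0181).

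**Figure D3:**
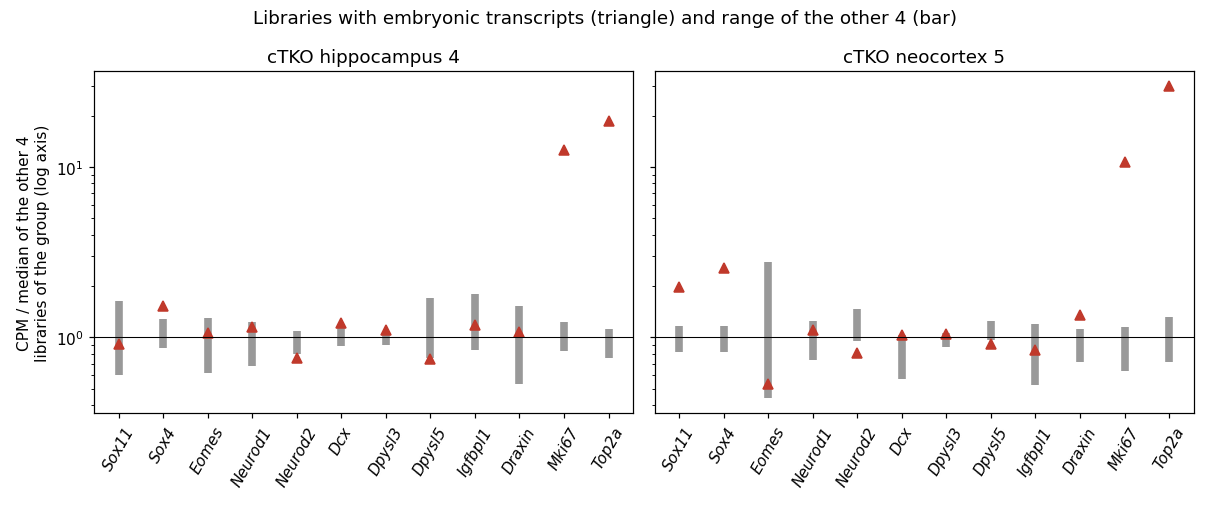
CPM of each gene in the libraries with embryonic transcripts (triangles), divided by the median of the other 4 libraries of the group, whose range is the grey bar, on a log axis, with the proliferation genes Mki67 and Top2a at the right. In cTKO neocortex 5 Sox4 is at 2.55 and Sox11 at 1.97 times that median, in cTKO hippocampus 4 Sox4 is at 1.53 and Dcx at 1.21 times, and Mki67 and Top2a are at 10.7 to 29.6 times.

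The 2 libraries with embryonic transcripts were compared with the other 4 libraries of their groups. In cTKO neocortex 5, Sox4, Sox11 and Draxin were above all others, at 2.55, 1.97 and 1.35 times their median, and Neurod2 and Dpysl5 were below all others. In cTKO hippocampus 4, Sox4, Dcx and Dpysl3 were above all others, at 1.53, 1.21 and 1.11 times their median, and Neurod2 and Dpysl5 were again below. Sox11 in cTKO hippocampus 4 was at 0.911 times the median of the others, within their range. The proliferation genes Mki67 and Top2a were 12.6 and 18.6 times the median in cTKO hippocampus 4. Of the 8 proliferation genes 3 were tested in each region, and of the 16 embryonic genes 1 was tested in the hippocampus, and 2 of them in the other region. The quasi-likelihood test called 0 of them, with 4 in the hippocampus and 3 in the neocortex at an unadjusted p under 0.05. Of all genes tested, 12% and 10.4% had such a p. DESeq2 called Foxm1 and the exact test H19 higher in both regions. The part of embryonic RNA in the values of these libraries was not tested.

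The regions were compared within each genotype. In controls, Neurod1, Neurod2 and Dpysl3 were higher in the hippocampus than in the neocortex and Dcx was lower. With Igfbpl1 and Draxin left aside, these were the tested genes called higher, where 29.8% of all 13832 genes were called higher. In the other direction 1 was lower, where 29.2% were called lower. Igfbpl1, at 0 to 0.83 CPM in the control neocortex, passed the filter only through the hippocampal libraries where it was high, so its log2 difference of 1.76 is a description. Draxin, at 0.37 to 1.76 CPM in the control neocortex, passed it mainly through the hippocampus as well. Its log2 difference of 1.30 is therefore a description too. Neurod2 showed a log2 difference of 0.84 (FDR 1.81e-07), Neurod1 of 0.81 (FDR 2.17e-06) and Dpysl3 of 0.23 (FDR 0.00848). Dcx differed by -1.48 (SE 0.0668, FDR 1.04e-10).

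Sox11 (log2 difference -0.10, FDR 0.337), Sox4 (0.03, FDR 0.792) and Dpysl5 (0.06, FDR 0.495) were not called between regions in controls. The lists below are set against the 29.8% of all genes called higher in the control hippocampus and the 29.2% called lower. Of 8 mature granule cell genes, 6 were called higher, with Prox1 at 2.75, and 2 lower. These are genes of a cell type of the dentate gyrus, and in the neocortex only 6 of the 8 passed the filter, so the count is a description. The 22 immature neuron genes gave 10 higher and 9 lower, with Nnat at 1.87 and Stmn1 at -1.26. Of the 10 tested stem and progenitor genes 3 were higher, with Hopx at 1.76, and 0 lower.

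In cTKO mice, Sox11, Neurod1, Neurod2 and Dpysl3 were called higher in the hippocampus, with Igfbpl1 and Draxin again left aside. Of all 13846 genes, 20.2% were called higher. Dcx was lower, where 21.1% were called lower. Igfbpl1 was at 0.37 to 0.86 CPM in the cTKO neocortex and again passed the filter only through the hippocampus, so its log2 difference of 3.07 is a description. Draxin, at 0.63 to 1.20 CPM in the cTKO neocortex, passed the filter mainly through the hippocampus, and its log2 difference of 2.04 is a description. Sox11 showed a log2 difference of 0.87 (SE 0.269, FDR 0.0207) and Dcx of -0.62 (SE 0.157, FDR 0.00705). Sox11 was thus called in cTKO mice and not in controls, and without cTKO hippocampus 4 and cTKO neocortex 5 its difference was 1.16 (FDR 0.00358). That call was lost without cTKO neocortex 1 (FDR 0.0539) or cTKO neocortex 2 (FDR 0.0516).

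**Figure D4:**
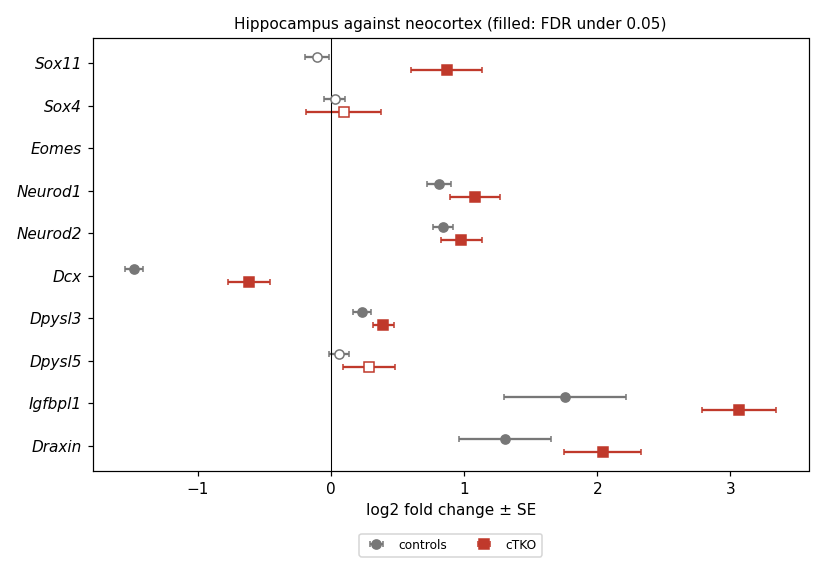
Log2 difference of hippocampus against neocortex (points, with SE) of each gene in controls (grey circles) and cTKO mice (red squares), filled where the FDR is under 0.05. Dcx lies at -1.48 in controls and at -0.62 in cTKO mice, and Sox11 at -0.10 and 0.87. Igfbpl1, at 1.76 and 3.07, passed the filter through the hippocampus alone, and Draxin mainly through it. Eomes, below the filter, has no point.

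The difference of the genotype effects between regions was tested itself. Of 9 genes, 0 were called with the quasi-likelihood test, where 0.0493% of all 14192 genes were called higher in the hippocampus and 0.00705% lower. An unadjusted p under 0.05 was found for 3 (Dcx, Sox11 and Igfbpl1), where 3.75% of all genes had one. Igfbpl1 passed the filter only through the hippocampal libraries, and Draxin mainly through them, so their values here are descriptions. Dcx had the smallest p among the 9 genes, with a difference of 0.87 (SE 0.177, FDR 0.0823). It was called by DESeq2 (FDR 0.00253), by edgeR's likelihood ratio test (FDR 0.00288), the only one of the 9 genes so called, where each of these tests called 0.183% of all genes. The fit took the 20 libraries as independent although the regions share mice. With the replicate number as a block Dcx was called (FDR 0.01), where 0.127% of all genes were called. Regions of the same number correlated above 0.1 in 5 of 5 control pairs but in 3 of 5 cTKO pairs, so a cTKO block may join different mice. Without the 2 libraries with embryonic transcripts, the Dcx difference was 0.84 (FDR 0.128). With each of the 20 libraries left out in turn the FDR ran from 0.013 to 0.214, and Dcx was called without cTKO neocortex 3 (difference 0.74) or cTKO hippocampus 3 (0.93) and in none of the other 18. Sox11 differed by 0.99 (SE 0.303, FDR 0.661), and by 1.27 (FDR 0.0983) without the 2 libraries with embryonic transcripts. Igfbpl1 differed by 1.33 (SE 0.604, FDR 0.9999), as a description only.

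The genes did not vary as one group between libraries. Over 18 libraries, with log2 CPM centred on the group mean and the 2 libraries with embryonic transcripts left out, the median Pearson r of the 45 pairs of genes was 0.06, and 24 pairs were positive. Dcx correlated with Dpysl3 at 0.61, with Neurod2 at -0.76 and with Dpysl5 at -0.52, and with Sox11 at -0.28. The 5 genes most like Dcx among 14192 were Ksr2 (r = 0.89), Pgr (0.89), Sgcd (0.88), Scai (0.88) and Evi5 (0.87). These points share library depth and composition, and the values are a description.

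The base composition of the transcripts moved with some of these values. The longest Dcx transcript has a GC content of 40.6%, below 92.7% of the genes with a value, while Neurod2 is at 58.7% and Dpysl5 at 56.6%. In cTKO neocortex 3, the library with the low Dcx and the highest Neurod2 and Dpysl5 of its region (178 and 51.6 CPM), the median log2 deviation from the control mean was 0.23 higher for GC-rich than for GC-poor genes (the upper and lower 20%) and 0.32 lower for long than for short transcripts. Over the other 19 libraries the first difference ranged from -0.16 to 0.12. In the hippocampus it was -0.14 to 0.09 in cTKO mice and -0.08 to 0.11 in controls, so that the genotypes overlapped. The part of composition in the results was not tested.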

How the data were processed

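Raw counts per gene symbol were deposited by the authors for each of the 20 libraries, after alignment to mm10 by STAR 2.5.4a and counting by HTSeq. The strand setting is not given in the sources used here. Groups were taken from the tissue and genotype labels.

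Counts were tested with edgeR 4.0.16 in R 4.3.3 (TMM scaling, genes with CPM above 1 in at least 5 libraries, estimateDisp, glmQLFit and glmQLFTest), with Benjamini-Hochberg adjustment over all genes tested and an FDR under 0.05 taken as a call. CPM in the text is relative to the library total times its TMM factor, and the filter used CPM without that factor. Single genes were compared by exact two-sided permutation tests of log2 CPM with a prior count of 2. The 10 genes and the lists were chosen with earlier results of these data known, and the lists give counts and medians only. Named genes are the 10 genes, App, Aplp1 and Aplp2, genes of the lists that were called (at most 3 a direction, of which the 1 with the largest difference is given in a region comparison), the 5 genes most like Dcx, and the 3 embryonic genes with the most counts; genes called only by another test or without a library were named after their values were seen.

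Alternatives were DESeq2 1.42.0, edgeR's exact or likelihood ratio test, DESeq2 size factors, no filter or filterByExpr, the replicate block, one fit of all libraries, and each library left out. The GC summary was added after the data were seen. The fits were tested on simulated data, where the share of false calls was above the FDR threshold in some runs and below it in others. The authors' RNA quality values were not used. Replicate numbers were checked for pairing by the correlation of deviations from the group means. In controls the 2 regions of the same number correlated at 0.13 to 0.33 in all 5 pairs. In cTKO mice 3 of 5 pairs were over 0.1, with a median of 0.32 and a lowest value of -0.07. Numbers thus went with the regions in all control pairs and in only part of the cTKO pairs. Positions are from GENCODE vM21 and promoters from RefSeq, both GRCm38. Figures were drawn with matplotlib 3.10.9 in Python 3.11.15.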

Additional observations from a re-analysis of the deposited data

Results flagged for a closer look

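Each of the 10 genes was examined in each of the 4 groups of 5 libraries for a value far from the rest. The measure was the gap to the nearest library as a share of the group's range, both in log2 CPM with a prior count of 2. Of 40 groups 2 were past the 95% limit, and chance alone gives about 1 in 20 groups. Dcx in cTKO neocortex 3 was at 27.1 CPM with the next library at 46.7 CPM, a share of 0.919. Eomes in control hippocampus 2 was at 0.428 CPM (10 counts) with the next at 0.804 CPM (16 counts), a share of 0.736. The cause was not tested.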

How the results depend on the processing

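Of 5 contrasts, the count of called genes among the 10 stayed within 1.5 times its value under the other tests, scalings and filters in all but the interaction, where DESeq2, the likelihood ratio test and the replicate block each called 1 gene in place of 0. With single libraries left out, it was 1 to 3 in the hippocampus (1 without control library 2 or 4, Igfbpl1) and 0 in the neocortex. Between regions it was 5 to 6 in controls and 6 to 7 in cTKO mice, with Draxin counted, and Igfbpl1 where it passed the filter. For the interaction it was 0 to 1 (1, Dcx, without cTKO hippocampus 3 or cTKO neocortex 3). Replicate numbers were not shown to pair the genotypes, since 1 of 5 same-number pairs in the hippocampus and 3 of 5 in the neocortex correlated above 0.1. The replicate block left 2 calls in the hippocampus (Sox11 at an FDR of 0.0646) and changed no other call among the 10 genes outside the interaction, where Dcx was called (FDR 0.01). Igfbpl1 fell below the filter when a hippocampal library was left out of a region comparison.

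Calls over all genes moved more. In the neocortex they were 26, and 221 with DESeq2, 163 with the exact test, 42 with no filter, 12 with the replicate block and 7 to 133 with a library left out. In the hippocampus they were 67, and 331 with DESeq2, 257 with the exact test, 189 in one fit of all libraries and 15 to 149 with a library left out. For the interaction they were 8, and 26 with DESeq2 or the likelihood ratio test, 18 with the replicate block and 5 to 20 with a library left out.

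Directions turned for uncalled genes only, when 1 library was left out. In the neocortex the log2 fold change ranged from -0.041 to 0.19 for Neurod2, from -0.027 to 0.087 for Dpysl5, from -0.19 to 0.17 for Sox11 and from -0.21 to 0.30 for Sox4. Sox4 ranged from -0.0058 to 0.078 between regions in controls, from -0.032 to 0.47 in cTKO mice and from -0.057 to 0.45 for the interaction, and Dpysl5 from -0.013 to 0.32 for the interaction. In permutation tests without the libraries with embryonic transcripts, p was 0.175 for Sox11 and 0.135 for Sox4 in the neocortex and 0.976 for Neurod1 in the hippocampus, with the direction turned. The cause was not tested. Counts were low for Eomes (10 to 41 in hippocampal and 0 to 16 in neocortical libraries) and, in the neocortex, for Igfbpl1 (0 to 19) and Draxin (6 to 27), which were below the filter there.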
